A study of Mus musculus with 8 samples.

Results

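The genes described here are 10 listed components of the BMP and Wnt signaling pathways. They comprise the secreted ligands Bmp4, Gdf10, Wnt6 and Wnt5a, the corepressor Tle1, the target genes Id1, Id2 and Id3, and the inhibitory SMAD genes Smad6 and Smad7. Every probe annotated to a listed gene was taken. This gave 15 probes for 9 of the 10 genes, out of 16559 genes on the array, and no probe of Smad7 was listed, so that gene is not analysed here. Of the 15 probes, 13 were detected on at least 1 array and 7 on all 8. All 9 genes were detected on at least 1 array and 6 of them on all 8. The list was drawn up with earlier results of these arrays known and has no numerical threshold, so all values below are descriptions and carry no p-value.

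The arrays were Illumina MouseRef-8 v2 bead arrays, on which labelled RNA binds to probes carried by beads. One set of RNA came from mouse embryonic fibroblasts (MEFs) of embryonic day 13.5, which carried the SV40 large T antigen to make them immortal and were harvested at passage 9. The other set came from livers of mice aged 2 months. Each sample type had 4 genotypes, namely wild type, the single knockouts Dnmt2-/- and Nsun2-/-, and the double knockout of both genes, with 1 array for each of the 8 groups. Dnmt2 (gene symbol Trdmt1) and Nsun2 encode enzymes that methylate cytosines in transfer RNAs. All groups carried the same strain label, CBA/C57BL6j x B6;129, which names a mixed background. Whether an MEF line came from 1 embryo or clone, whether livers were pooled, and how the alleles were built is not stated in the labels.

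BMP ligands bind receptor kinases that phosphorylate SMAD proteins, which enter the nucleus with SMAD4 and switch on target genes. Among the best known targets are the Id genes, whose products block the DNA binding of basic helix-loop-helix factors, and Smad6, whose product feeds back to damp the signal. Wnt ligands bind Frizzled receptors. In the canonical branch beta-catenin then displaces TLE corepressors from TCF/LEF factors, whereas Wnt5a is best known for signaling without beta-catenin. In liver, BMP signaling controls the iron hormone hepcidin in hepatocytes, and Wnt signaling sets the zonation of the lobule.

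The promoters of the genes whose levels moved together are shown here, with that of the inhibitor Smad6. RefSeq promoter sequences on the build GRCm38.p6, covering 250 bases before and 30 after the gene's start, were matched for 7 of the 10 genes. They are written 5′ to 3′ along the gene. Capitals mark a match to one of 4 motifs searched on both strands: GGCGCC, a GC-rich SMAD-binding sequence, GTCTAGAC, the palindromic SMAD-binding element, CTTTGAT, a TCF/LEF core, and the composite BMP response element, which joins a GC-rich SMAD site to a SMAD4 site. Bmp4 (chr14:46390640-46390919, minus strand) and Tle1 (chr4:72200864-72201143, minus strand) are shown because both were higher in the MEF lines that lack Dnmt2. Id2 (chr12:25096063-25096342, minus strand) and Id3 (chr4:136143572-136143851, plus strand) represent the targets that were lowest in the lines that lack Nsun2, and Smad6 (chr9:64022030-64022309, minus strand) holds the palindromic element.
Bmp4: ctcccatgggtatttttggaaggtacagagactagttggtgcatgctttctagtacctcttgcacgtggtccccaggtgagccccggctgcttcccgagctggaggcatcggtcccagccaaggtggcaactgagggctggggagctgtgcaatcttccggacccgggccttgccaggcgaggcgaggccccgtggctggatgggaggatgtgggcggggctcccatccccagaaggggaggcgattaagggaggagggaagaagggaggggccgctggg
Tle1: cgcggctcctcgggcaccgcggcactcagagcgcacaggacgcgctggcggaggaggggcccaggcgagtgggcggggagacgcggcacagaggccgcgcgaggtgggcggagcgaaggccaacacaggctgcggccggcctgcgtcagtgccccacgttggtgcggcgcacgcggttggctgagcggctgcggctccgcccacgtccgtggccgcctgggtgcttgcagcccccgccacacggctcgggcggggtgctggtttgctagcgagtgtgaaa
Id2: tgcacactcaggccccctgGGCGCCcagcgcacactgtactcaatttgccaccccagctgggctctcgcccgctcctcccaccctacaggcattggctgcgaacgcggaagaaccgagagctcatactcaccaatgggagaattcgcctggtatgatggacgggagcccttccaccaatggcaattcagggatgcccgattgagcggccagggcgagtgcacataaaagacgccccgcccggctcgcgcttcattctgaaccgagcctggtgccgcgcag
Id3: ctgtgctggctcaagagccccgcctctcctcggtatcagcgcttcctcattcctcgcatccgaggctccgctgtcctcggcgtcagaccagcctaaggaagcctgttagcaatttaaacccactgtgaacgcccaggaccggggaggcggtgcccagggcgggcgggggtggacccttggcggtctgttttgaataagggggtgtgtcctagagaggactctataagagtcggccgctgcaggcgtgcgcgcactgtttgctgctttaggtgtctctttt
Smad6: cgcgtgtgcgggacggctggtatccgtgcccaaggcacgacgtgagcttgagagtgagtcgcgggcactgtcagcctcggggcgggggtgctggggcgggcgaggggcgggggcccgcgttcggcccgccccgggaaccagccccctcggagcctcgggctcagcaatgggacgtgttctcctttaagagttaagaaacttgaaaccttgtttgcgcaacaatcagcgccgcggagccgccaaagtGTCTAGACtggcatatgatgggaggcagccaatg

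The palindrome GTCTAGAC was found in the Smad6 promoter only among the 7, beginning 4 bases before the start, and 0.192% of all 32851 promoters of this length hold it. GGCGCC was found in the Id2 promoter, 231 bases before the start, and in the Gdf10 promoter, after the start, and 10.9% of all promoters hold it. The GC-rich motif and the composite element can share letters. No copy of the composite element (0.222% of all promoters) or CTTTGAT (3.56%) was found in these windows. The GC content of the 7 promoters was 60.7% to 78.6%, against a median of 52.5% over all promoters. These matches describe letters and are not evidence of binding.

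Values are log2 signals after background correction and quantile normalization, and differences between 2 arrays are log2 differences. A probe was called detected at a deposited detection p-value under 0.01. Between 13019 and 13409 probes were detected on the MEF arrays and between 11585 and 11688 on the liver arrays, and the lowest detected signal was 4.39 to 4.53. Nsun2 was detected in wild-type (5.36) and Dnmt2-/- (5.14) MEFs and in neither MEF line labelled as lacking it. Among the livers only wild type (5.35) reached detection, and the array labelled Dnmt2-/- (4.41) did not. The Trdmt1 probe went against the MEF labels: it reached detection in Dnmt2-/- (5.09) and double knockout (4.64) MEFs but not in wild type (4.51) or Nsun2-/- (4.40). It was undetected in all livers (4.31, 4.87, 4.15 and 4.64). Its place relative to the deleted part is not stated, so the Dnmt2 labels are not checked by these data, and lines lacking Dnmt2 are those labelled so. The Y-linked gene Eif2s3y was detected in wild-type (7.85) and Dnmt2-/- (6.78) MEFs and in neither of the MEF lines that lack Nsun2. In MEFs, differences by sex and by Nsun2 genotype cannot be told apart. Of 8 fibroblast markers all 8 were detected on every MEF array, with a summed linear level of 16463 in wild type, 27254 in Dnmt2-/-, 21566 in Nsun2-/- and 8967 in the double knockout. Of 8 hepatocyte markers 7 were detected in liver, with a summed level of 66329 to 69097 and Fgb undetected, against 18.1 to 37.0 in MEFs.

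Bmp4, a BMP ligand that patterns mesoderm and many organs, was high in the MEF lines that lack Dnmt2. Its signal was 6.97 in wild-type, 9.86 in Dnmt2-/-, 7.34 in Nsun2-/- and 9.49 in double knockout MEFs. Before normalization, the corresponding intensities were 270, 1339, 310 and 1013. Both lines without Dnmt2 lay above both lines with it. The difference was 2.89 (7.41-fold) between Dnmt2-/- and wild type and 2.15 (4.43-fold) between the double knockout and Nsun2-/-, and these comparisons share no array. Loss of Nsun2 came with smaller differences of opposite sign, 0.37 against wild type and −0.38 between the double knockout and Dnmt2-/-. In the livers Bmp4 was 6.50 in wild type, 6.96 on the array labelled Dnmt2-/-, 6.20 in Nsun2-/- and 6.74 in the double knockout. As in MEFs, both arrays labelled as lacking Dnmt2 lay above both others, with differences of 0.46 and 0.54. In liver 12.6% of all genes had this layout. Wild type and Nsun2-/- stood in the opposite order to MEFs. Over the 7 settings the 2 liver differences were as low as 0.26 and 0.28.

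Tle1, which encodes a Groucho-family corepressor of Wnt and other target genes, followed the same pattern in MEFs. It measured 7.43 in wild type, 9.16 in Dnmt2-/-, 7.26 in Nsun2-/- and 9.05 in the double knockout. The difference was 1.73 (3.31-fold) for Dnmt2-/- against wild type and 1.79 (3.46-fold) for the double knockout against Nsun2-/-. A second probe gave 5.93, 7.44, 5.83 and 7.27 in the same order, with differences of 2.84-fold and 2.71-fold. The 2 remaining Tle1 probes were detected on no array. In the livers the brightest probe measured 9.00, 8.91, 8.91 and 8.99, a range of 0.09, and the second probe 7.20 to 7.25. The livers did not separate the genotypes. Their place beside the MEF lines depends on normalization: before it, the brightest probe read 413 to 446 in the livers, against 342, 916, 298 and 796 in the MEF lines, nearer to wild type and Nsun2-/-. Among other corepressor genes of this family, Tle5 had the same order with smaller differences. Tle2 and Tle4 were level in wild type and Dnmt2-/- and highest in the double knockout. Tle5 was 10.11, 10.18, 9.96 and 10.37 in the 4 MEF lines, Tle2 6.72, 6.72, 6.48 and 6.82, and Tle4 7.44, 7.45, 7.19 and 8.32. The differences in the pairs that differ in Dnmt2 were 0.08 and 0.42 for Tle5, 0.00 and 0.34 for Tle2, and 0.00 and 1.13 for Tle4. Tle6 went the other way, at 9.01, 8.16, 8.62 and 8.39 (−0.84 and −0.24). Skeletal muscle markers were also highest in both lines labelled as lacking Dnmt2, with a summed level of 62.8 in wild type, 358 in Dnmt2-/-, 49.4 in Nsun2-/- and 133 in the double knockout. Of 6 such markers 5 had a probe and 3 were detected on at least 1 MEF array, with Myod1 and Actc1 undetected. Their part in the Bmp4 and Tle1 values was not tested.

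**Figure D1:**
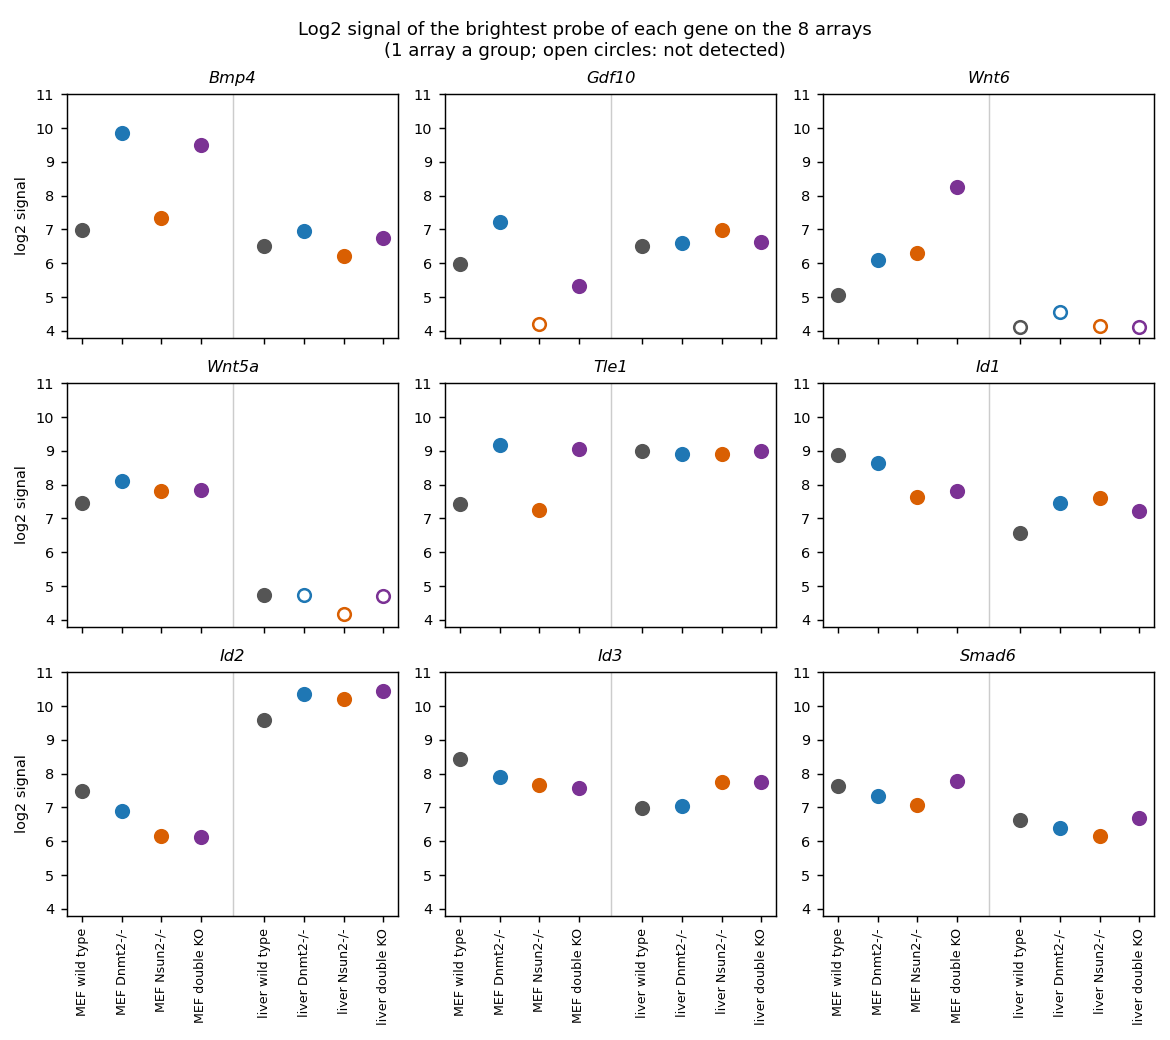
Log2 signal (vertical axis) of the brightest probe of each of the 9 genes on the 4 MEF and 4 liver arrays, 1 point per array, with open circles for arrays on which the probe was not detected. Bmp4 and Tle1 stand high in Dnmt2-/- and double knockout MEFs, Wnt6 is highest in double knockout MEFs (8.26), and Id2 is higher in every liver than in every MEF line.

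Wnt6, a canonical Wnt ligand made mainly by epithelia in the embryo, was lowest in wild-type MEFs and highest in the double knockout. It measured 5.07 in wild type, 6.11 in Dnmt2-/-, 6.29 in Nsun2-/- and 8.26 in the double knockout, and was detected in none of the livers (4.12 to 4.56). The intensities before normalization were 123, 189, 189 and 509. Each single knockout lay about 1 log2 unit above wild type, by 1.04 (2.06-fold) for Dnmt2-/- and 1.22 (2.34-fold) for Nsun2-/-. The double knockout was 3.19 (9.13-fold) above wild type, 2.15 (4.44-fold) above Dnmt2-/- and 1.97 (3.91-fold) above Nsun2-/-. Without background correction the single-knockout differences were 0.41 and 0.49, below 2-fold, and that of the double knockout was 1.77. Of 5 epithelial markers with a probe, 4 were detected on at least 1 MEF array. Their summed level was 40.2, 41.9, 31.2 and 50.8 in the same order, highest in the double knockout, and its part in the Wnt6 values was not tested.

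Wnt5a, the abundant Wnt of mesenchymal cells, differed less. Its brightest probe measured 7.45 in wild-type, 8.11 in Dnmt2-/-, 7.80 in Nsun2-/- and 7.85 in double knockout MEFs. A second probe measured 6.35, 6.49, 6.59 and 6.58. Wild type was lowest by both probes, by 0.66 at most with the first and 0.24 with the second, and the probes placed the knockouts in different orders. In liver the first probe was detected in wild type only (4.73), close to the detection limit, and the second in none.

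Gdf10, a BMP family ligand also known as BMP3B, was highest in Dnmt2-/- MEFs. It measured 5.99 in wild type, 7.22 in Dnmt2-/- and 5.31 in the double knockout, and was not detected in Nsun2-/- (4.21). Dnmt2-/- was 1.23 (2.34-fold) above wild type, and Nsun2-/- was at least 3.01-fold below it. The double knockout was 3.74-fold below Dnmt2-/- and at least 1.89-fold above Nsun2-/-. Both lines without Nsun2 thus lay below both lines with it. Without background correction the Gdf10 differences were smaller than 2-fold, at 0.68 for Dnmt2-/- and −0.53 for Nsun2-/- against wild type. In the livers Gdf10 was 6.51, 6.60, 6.97 and 6.63, which lay within 0.46 of each other.

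Id1 was lower in the MEF lines that lack Nsun2. Its signal was 8.87 in wild type, 8.63 in Dnmt2-/-, 7.63 in Nsun2-/- and 7.81 in the double knockout. Nsun2-/- was 2.35-fold below wild type (−1.24) and the double knockout 1.77-fold below Dnmt2-/- (−0.82), and the lines with and without Nsun2 did not overlap. In liver wild type was lowest instead of highest. Id1 measured 6.58 in wild type, 7.46 on the array labelled Dnmt2-/-, 7.61 in Nsun2-/- and 7.21 in the double knockout, so all 3 knockout arrays lay above wild type, by 0.89, 1.04 and 0.63. Without background correction the Id1 difference of Nsun2-/- from wild type was −0.96 in MEFs and 0.65 in liver, both below 2-fold.

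Id2 had the same layout at another level. In MEFs it measured 7.48 in wild type, 6.90 in Dnmt2-/-, 6.17 in Nsun2-/- and 6.13 in the double knockout. Nsun2-/- was 2.48-fold below wild type (−1.31) and the double knockout 2.54-fold below it (−1.35). A second Id2 probe gave 5.24, 4.76 and 4.81, and was not detected in the double knockout, so it too was highest in wild type, but its difference between Nsun2-/- and wild type was −0.43. Without background correction the first probe gave −0.76 for Nsun2-/- and −0.78 for the double knockout against wild type, both below 2-fold. In liver Id2 was 9.59 in wild type, 10.35 on the array labelled Dnmt2-/-, 10.21 in Nsun2-/- and 10.44 in the double knockout. The second probe gave 6.63, 7.05, 7.16 and 7.13. Both probes were lowest in the wild-type liver and highest in wild-type MEFs.

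Id3 differed by less than 2-fold in every comparison. In MEFs it was 8.44 in wild type, 7.90 in Dnmt2-/-, 7.66 in Nsun2-/- and 7.59 in the double knockout, again with wild type highest. In liver it was 6.97, 7.05, 7.75 and 7.76. Both livers labelled as lacking Nsun2 lay above both others, by 0.78 and 0.71 in the comparisons that share no array. Of those others, the array labelled Dnmt2-/- had no detected Nsun2 signal either. In MEFs both lines without Nsun2 lay below both with it. Id4, a family member outside the list, measured 6.13, 6.19, 6.46 and 5.96 in MEFs and was detected in 2 of the 4 livers.

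Smad6, the inhibitory SMAD, measured 7.62 in wild-type, 7.33 in Dnmt2-/-, 7.08 in Nsun2-/- and 7.79 in double knockout MEFs. The livers gave 6.64, 6.38, 6.17 and 6.70. By this probe, Nsun2-/- was lowest and the double knockout highest in both sample types. The second probe, at 5.50, 5.90, 5.23 and 5.80 in MEFs, placed Dnmt2-/- highest, so the probes differ in the sign of Dnmt2-/- against wild type (−0.30 and 0.40). Nsun2-/- MEFs were lowest by both probes. In the livers the second probe gave 4.94 (not detected), 5.38, 4.91 and 4.88, lowest in the double knockout. No Smad6 difference reached 2-fold with either probe in MEFs.

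**Figure D2:**
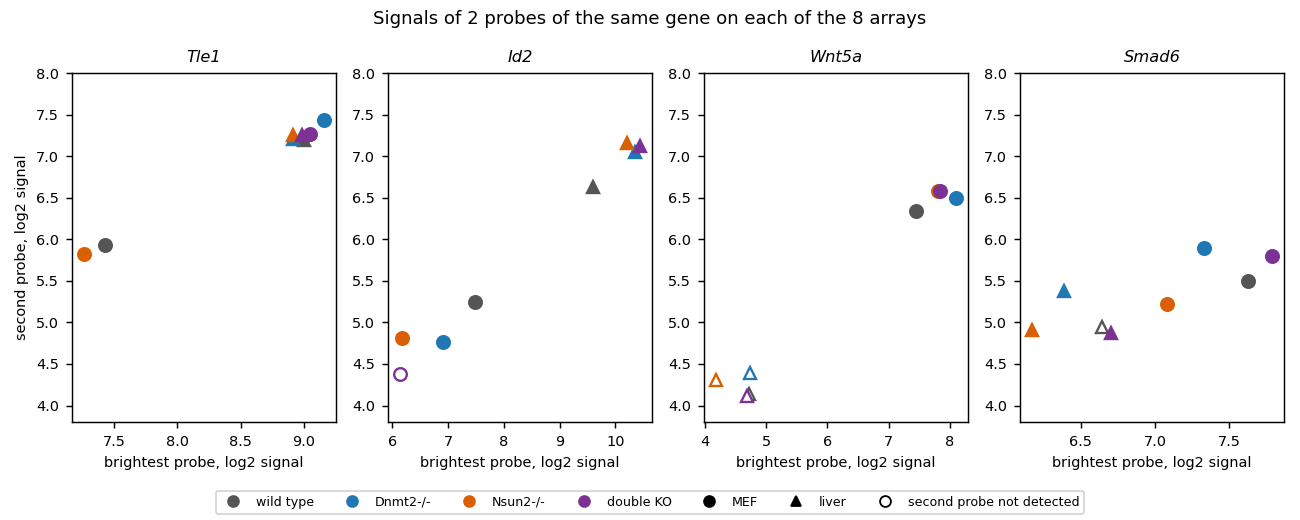
Log2 signal of the second detected probe (vertical axis) against the brightest probe (horizontal axis) of Tle1, Id2, Wnt5a and Smad6, 1 point per array, with circles for MEFs, triangles for livers, colours for genotypes and open symbols where the second probe was not detected. The Tle1 probes place the 4 MEF lines in the same order, with wild-type and Nsun2-/- MEFs apart from the rest, while the Smad6 probes order the MEF lines differently.

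Counts over the list were set beside the share of all detected genes past the same fold in the same direction. In Dnmt2-/- against wild-type MEFs, 4 of the 9 genes were at least 2-fold higher (Bmp4, Tle1, Gdf10 and Wnt6), where 2.73% of all genes were, and 0 were lower, where 0.893% were. In Nsun2-/- against wild type 1 was higher (Wnt6; 1.94% of all genes) and 3 were lower (Gdf10, Id2 and Id1; 0.682%). In the double knockout against wild type 3 were higher (Wnt6, Bmp4 and Tle1; 4% of all genes) and 2 were lower (Id2 and Id1; 2.82%). These 3 comparisons share the wild-type array. Against Nsun2-/-, 3 genes were higher in the double knockout (3.32% of all genes) and 0 were lower (3.3%). Against Dnmt2-/-, 1 was higher (2.61%) and 1 was lower (3.68%). The median difference of the 9 genes from wild type was 0.66 for Dnmt2-/-, −0.54 for Nsun2-/- and 0.17 for the double knockout, and that of all genes was −0.04, −0.04 and −0.03. Since the list was chosen with these results known, nothing is read from the counts.

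In liver, counts in either direction were taken. Against wild type 0 of 8 detected genes passed on the array labelled Dnmt2-/- (2.36% of all genes), 1 of 8 in Nsun2-/- (Id1, 2.89%) and 0 of 8 in the double knockout (3.1%). Of 7 detected genes 0 passed between the double knockout and Nsun2-/- (2.84%) or the array labelled Dnmt2-/- (3.78%). The median differences against wild type were 0.10, 0.19 and 0.18, with medians of 0.00, 0.00 and 0.01 over all genes.

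The layout of the genotypes gives each loss in 2 pairs of arrays that share none, and the brightest probe of each gene is used here. For loss of Dnmt2 in MEFs, Bmp4, Wnt6 and Tle1 were at least 2-fold higher in both pairs, which is 3 of 9 genes, where 0.564% of 9047 genes detected in both pairs were. Gdf10 was 1.23 higher in the first pair and at least 0.92 in the second. For Bmp4, Wnt5a and Tle1 both lines without Dnmt2 lay above both with it, a layout that 14% of all genes had. The second Wnt5a probe did not have it, with the double knockout −0.01 from Nsun2-/-. For loss of Nsun2, Wnt6 was at least 2-fold higher in both pairs (0.209% of all genes) and Gdf10 at least 2-fold lower (0.187%). Gdf10, Id1, Id2 and Id3 were lower in both lines without Nsun2 than in both with it, as were 14.1% of all genes, and Wnt6 was higher, as were 12.4%. The second Id2 probe did not have this layout, since Nsun2-/- (4.81) lay above Dnmt2-/- (4.76). The Y-linked genes and Xist divided the MEF lines in the same way, and their part in these differences was not tested. In the livers, grouped by label, Bmp4 and Id2 were higher without Dnmt2, with no overlap (12.6% of all genes). Gdf10 and Id3 were higher without Nsun2 in the same way (17%).

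**Figure D3:**
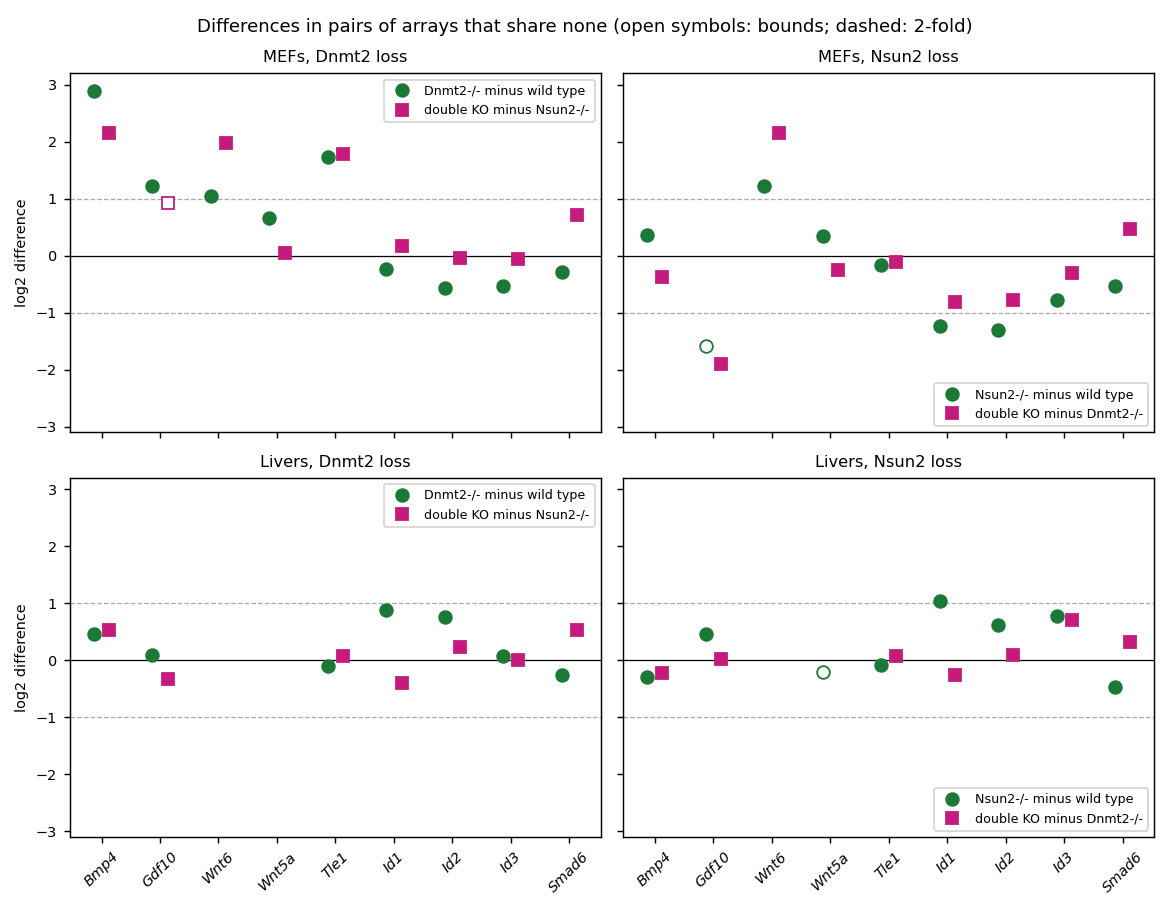
Log2 differences (vertical axis) of the 9 genes for loss of Dnmt2 (left) and of Nsun2 (right) in MEFs (top) and livers (bottom), each in 2 pairs of arrays that share no array; open symbols are bounds from undetected probes and dashed lines mark 2-fold. In MEFs, Bmp4 and Tle1 lie above 1.5 in both Dnmt2 pairs, Wnt6 lies above 1 in all 4 MEF pairs, and Id1, Id2 and Id3 lie below 0 in both Nsun2 pairs.

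Between the sample types, 5 of the 9 genes were higher in every MEF line than in every liver, a layout held by 31.5% of all 11639 genes, and 1 was higher in every liver, as were 22.6%. Arrays of a sample type differ in genotype, so the SD below includes the genotypes. Wnt5a averaged 7.80 ± 0.27 in MEFs and 4.58 ± 0.27 in livers (SD, n = 4 arrays each), with 1 liver detected. Wnt6 was at least 3.77-fold higher in MEFs. Bmp4 averaged 8.42 ± 1.47 in MEFs and 6.60 ± 0.33 in livers, a difference of 1.82 (3.52-fold). Id1 was 1.02 and Smad6 0.98 higher in MEFs. For Bmp4 the margin was narrow, with wild-type MEFs at 6.97 and the liver array labelled Dnmt2-/- at 6.96. That of Id1 was also narrow, with 7.63 in Nsun2-/- MEFs and 7.61 in Nsun2-/- liver. The second Smad6 probe overlapped, at 5.23 in Nsun2-/- MEFs and 5.38 on the liver array labelled Dnmt2-/-. Id2 was 11.2-fold higher in livers, at 10.15 ± 0.38 against 6.67 ± 0.65. Tle1, Gdf10 and Id3 overlapped between the sample types. The distance between the sample types depends on normalization. Before it, Id3 read 358 to 598 in MEFs and 161 to 224 in livers, without overlap. Id2 then read 177 to 351 in MEFs and 658 to 1216 in livers. Since RNA came from whole tissue and bulk cultures, fewer cells of a type and less RNA per cell cannot be told apart. In the livers 8 of 8 endothelial markers were detected on all arrays (summed level 4329 to 4594), as were 6 of 8 stellate or pericyte markers (2047 to 2548), and the share of these cells in the liver values was not tested.

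The rest of the pathways was read from 186 other listed genes, of which 172 had a probe. In Dnmt2-/- against wild-type MEFs 7 of 107 detected genes were at least 2-fold higher (2.73% of all genes) and 1 lower (0.893%). In Nsun2-/- 5 of 109 were higher (1.94%) and 1 lower (0.682%), and in the double knockout 10 of 105 were higher (4%) and 6 lower (2.82%). Nothing is called particular to the pathways from these counts. The median differences were 0.05, −0.00 and −0.09. In both pairs of MEF arrays for loss of Nsun2, 0 of 100 were at least 2-fold higher (0.209% of all genes). Of the same 100, 1 was at least 2-fold lower (Msx2, 0.187%). For loss of Dnmt2, 0 of 98 were lower in both pairs, and that share of all genes is not given here. At least 2-fold higher in both Dnmt2 pairs were 3 of 98, where 0.564% of all genes were. One was Inhbb, which encodes an activin subunit, at 5.73 in wild type, 7.95 in Dnmt2-/-, 6.02 in Nsun2-/- and 7.47 in the double knockout. The others were Lefty1, an antagonist of Nodal signaling (5.90, 7.46, 7.22 and 8.29), and the Wnt ligand Wnt10a (6.60, 7.80, 7.51 and 8.64). Lefty1 and Wnt10a were thus lowest in wild type and highest in the double knockout, as Wnt6 was, whereas Inhbb had the layout of Bmp4.

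Transcripts of the SMAD genes and their regulators stayed within 2-fold of wild type in MEFs. This was 0 of 12 detected genes in Dnmt2-/-, Nsun2-/- and the double knockout alike, where 0.682% to 4% of all genes passed in 1 direction, so the count is near the background. Smad1, which carries the BMP signal, was 8.89, 8.61, 9.03 and 8.38 in the 4 lines, Smad5 was 9.28, 8.89, 9.18 and 8.99, and Smad4, the shared partner, was 11.57, 11.33, 11.48 and 11.19. The type I receptor gene Bmpr1a was 8.16, 8.03, 7.88 and 8.07. Among 10 detected receptors of these families in the double knockout, Eng and Tgfbr2 were at least 2-fold above wild type (4% of all genes). In that comparison 0 were lower (2.82%). Against Nsun2-/-, 11 receptors were detected, of which Eng was at least 2-fold higher (3.32% of all genes). Tgfbr3 and Bmpr1b were at least 2-fold lower (3.3%). Eng, a co-receptor for BMP9 and TGF-beta known from endothelium, was 4.99, 5.53, 4.71 and 8.50. Of 8 endothelial markers, 5 were detected on at least 1 MEF array and 1 on all 4. Pecam1, Cdh5 and Lyve1 were detected on none. The summed level of the list was lowest in the double knockout, at 161 against 213 to 258 in the other lines. The part of endothelial cells in the Eng values was not tested.

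The BMP and TGF-beta target list includes Id1, Id2, Id3 and Smad6, described above. Of its 14 detected members in Nsun2-/- MEFs, Id1, Id2 and Msx2 were at least 2-fold lower than wild type (0.682% of all genes). Tgfbi was higher (1.94%), and the median was −0.46. In the double knockout Id1, Id2 and Atoh8 were lower (2.82%) and Msx1 was higher (4%), with a median of −0.42. In Dnmt2-/- MEFs 0 of 14 were lower (0.893%) or higher (2.73%), with a median of −0.14. Below 0 were 8 of 14 in Dnmt2-/- and 10 of 14 in each of the other lines. Without those 4 genes, 4 of 10 were below 0 in Dnmt2-/- (median 0.14), 6 of 10 in Nsun2-/- (−0.16) and 7 of 10 in the double knockout (−0.21). The share of all genes below 0 is not given here. The medians of all genes were −0.04, −0.04 and −0.03 in Dnmt2-/-, Nsun2-/- and the double knockout. Msx1, a homeobox gene induced by BMPs in mesenchyme, was 6.11, 6.37, 5.93 and 8.72. Msx2, its relative, was 5.41 in wild type, 5.89 in Dnmt2-/-, not detected in Nsun2-/- and 4.58 in the double knockout. Atoh8 was 6.04, 5.62 and 5.32 in wild-type, Dnmt2-/- and Nsun2-/- MEFs and not detected in the double knockout.

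Of 9 detected secreted BMP inhibitors and modulators, 2 were at least 2-fold above wild type in Dnmt2-/- MEFs (Nbl1 and Chrd, 2.73% of all genes). In Nsun2-/- 1 was (Nbl1, 1.94%), as was 1 in the double knockout (Grem1, 4%). In these lines 0 of them were lower (0.682% to 2.82%). Of 7 detected secreted Wnt inhibitors 0 were higher in these lines (1.94% to 4%). Lower was 1, Sfrp2 in the double knockout (2.82%). Nbl1, a BMP antagonist, was 8.78 in wild type, 10.59 in Dnmt2-/-, 10.16 in Nsun2-/- and 8.86 in the double knockout. Sfrp2, which encodes a secreted Wnt binder, was 10.27, 11.12, 10.63 and 7.91, and Sfrp1 was 9.02, 9.27, 9.93 and 8.17. Both Sfrp genes were thus lowest in the double knockout, the line with the lowest summed level of fibroblast markers, and the part of that in these values was not tested. Grem1, a BMP antagonist, was highest there, at 7.61 against 6.06 to 6.74 in the other lines. Of 13 detected genes of the Wnt core in that line 1, Porcn, was at least 2-fold above wild type (4% of all genes). In the same list 0 were lower (2.82%). Porcn, whose product attaches the lipid that Wnts need for secretion, was 6.03, 6.38, 6.17 and 7.39. The Wnt target Ccnd1 was 10.17, 10.87, 11.01 and 12.28, while Axin2, the usual readout of beta-catenin signaling, was 5.46, 5.20, 4.95 and 5.01. Of the detected Wnt targets, 1 of 8 was at least 2-fold above wild type in Dnmt2-/- (Nkd2, 2.73% of all genes). In Nsun2-/- 2 of 10 were (Sp5 and Nkd2, 1.94%), and in the double knockout 1 of 9 was (Ccnd1, 4%). In these lines 0 were 2-fold lower, where 0.682% to 2.82% of all genes were. The medians were 0.26, 0.35 and 0.63.

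**Figure D4:**
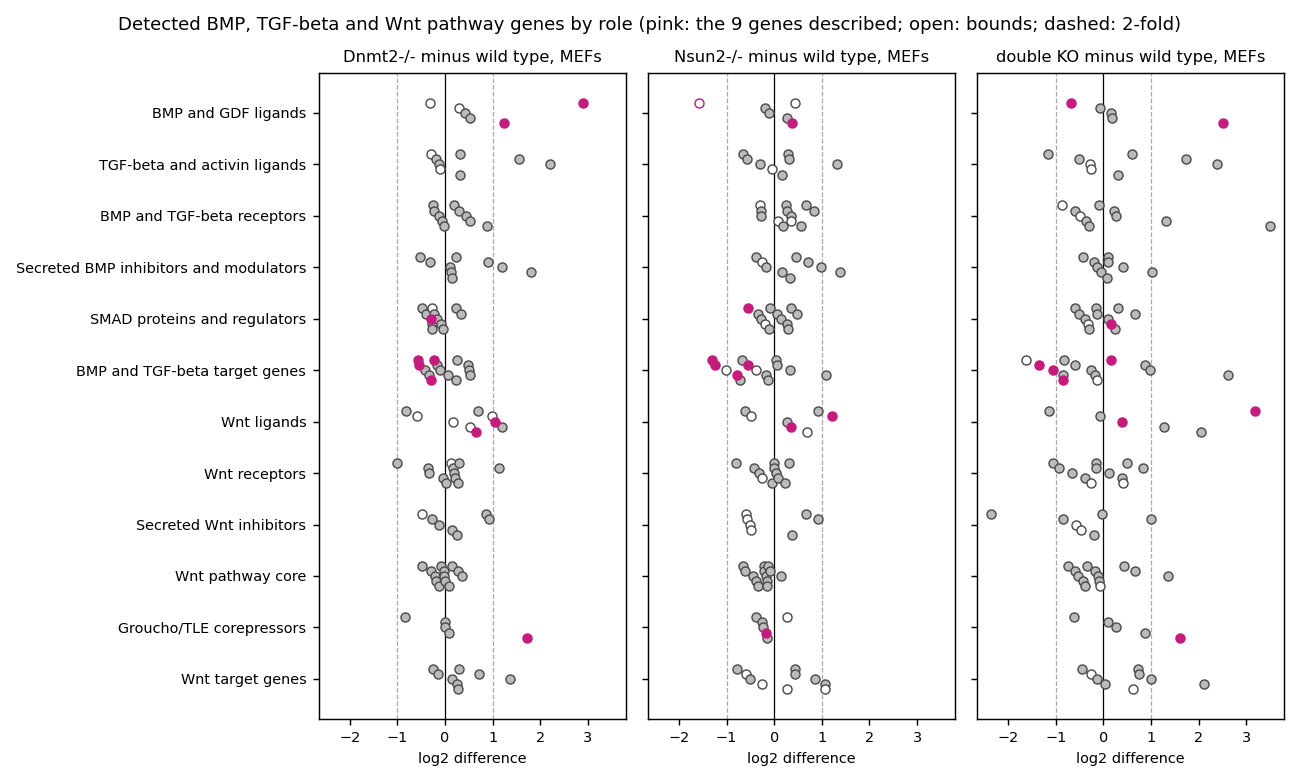
Log2 difference from wild type (horizontal axis) of every detected listed gene in Dnmt2-/-, Nsun2-/- and double knockout MEFs, grouped by role, 1 point per gene, with the 9 genes described in pink, bounds as open points and dashed lines at 2-fold. SMAD genes lie within 2-fold in all 3 panels. Ligands reach 2.89 (Bmp4, Dnmt2-/-) and 3.19 (Wnt6, double knockout), and the receptor gene Eng reaches 3.51 (double knockout). Ligands also pass 2-fold downward, among them Gdf10 (−1.59, a bound, Nsun2-/-) and Inhba (−1.16, double knockout).

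In the livers the same genes gave 1 of 98 at least 2-fold higher and 5 lower on the array labelled Dnmt2-/- against wild type (2.36% of all genes in either direction), 2 of 90 higher and 1 lower in Nsun2-/- (2.89%), and 4 of 92 higher and 5 lower in the double knockout (3.1%). Inhba, another activin subunit gene, was the 1 of 88 genes at least 2-fold higher in both pairs labelled as differing in Nsun2. It measured 7.08 in wild type, 7.52 on the array labelled Dnmt2-/-, 8.26 in Nsun2-/- and 8.68 in the double knockout. Both arrays labelled as lacking Nsun2 lay above both others, a layout that 17% of all genes had. The share of all genes 2-fold higher in both liver pairs is not given here. The hepcidin gene Hamp, the main hepatocyte target of BMP signaling, was 12.83, 13.36, 12.89 and 13.46. It was higher on both arrays labelled as lacking Dnmt2, by 0.52 and 0.57, a layout that 12.6% of all genes had. Hamp2 was 10.69, 12.57, 11.06 and 11.72, but the sequences of these paralogs are nearly identical, so probes may share signal and their separate levels are uncertain. Of 9 detected zonation genes under Wnt control, 0 were at least 2-fold higher on any knockout array than in wild type. Lower were 1 on the array labelled Dnmt2-/-, 0 in Nsun2-/- and 1 in the double knockout. Over all genes 2.36%, 2.89% and 3.1% passed in either direction. The first was the R-spondin receptor gene Lgr5, 5.54 in wild type and undetected there, at least 2.05-fold lower. The other was the glutamate transporter gene Slc1a2, at 8.83, 9.12, 9.08 and 7.76.

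Likeness of profiles was measured as the Euclidean distance over the 8 arrays after the mean of each sample type was taken off, over 10491 genes detected on at least 2 arrays. For the 4 listed genes with the widest range in MEFs, the 3 nearest genes were named. Nearest to Tle1 were Unc5c (0.20), Ptprd (0.31) and Irf7 (0.52), and Irf7 measured 8.44, 10.54, 8.87 and 10.58 in the 4 MEF lines. Nearest to Bmp4 were Cacna1h (0.73), Igfbp2 (0.91) and Inhbb (0.92). Nearest to Wnt6 were Heph (0.73), Retreg1 (0.83) and Dipk1c (0.86). Gdf10 had no neighbour so close, with Angpt2 at 0.99, Cd55 at 1.22 and Ecrg4 at 1.23. Within the list, the closest pairs were Id1 and Id2 (0.54), Id2 and Id3 (0.81), Wnt5a and Smad6 (0.87) and Id1 and Id3 (0.92), and Bmp4 and Tle1 lay 1.04 apart. The distance was not scaled to the range of a gene, so genes that vary little lie close whatever their order. Wnt5a and Smad6 had MEF ranges of 0.66 and 0.71 and differed in their lowest and highest lines. Bmp4 and Tle1 were both high in the lines without Dnmt2, with ranges of 2.89 and 1.90. All distances come from the same 8 arrays and describe them only.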

How the data were processed

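Arrays of 4 MEF and 4 liver groups were grouped by the sample labels, with 1 array per group; no batch is given. The deposited table holds, per probe and array, a linear intensity without normalization and a detection p-value, per the file headers. The authors also deposited processed intensity values. Scanner software and the authors' normalization are not given in the sources used here. The number of per-sample columns of no known sample was 0.

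Intensities were background-corrected with limma 3.58.1 (R 4.3.3; normexp, detection p-values, offset of 16), log2-transformed and then quantile-normalized across the 8 arrays. The remaining steps used Python 3.11.15. The platform annotation named 1 gene for 23898 of 25608 probes. The probe with the highest mean signal stands for a gene, and all probes of the listed genes are reported. Comparisons covered genes detected (p-value under 0.01) on at least 1 of 2 arrays. An undetected value was raised to the lowest detected signal of its array where it lay below that, and the fold is then a bound. A difference counted at 2-fold or more. The number of arrays limits the precision, and no p-value was computed. The steps were tested on simulated data.

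The genes and lists were chosen with earlier results of these data known. Named were all listed genes, pathway genes past 2-fold (at most 4 per list and comparison), genes named for their role, and the 3 profiles nearest to each of 4 genes. Alternatives were no background correction, an offset of 50, median scaling, quantile normalization within sample type, the authors' values, a detection p-value under 0.05, the mean over probes and a 1.5-fold threshold.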

Additional observations from a re-analysis of the deposited data

Results flagged for a closer look

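For Id2 and Id3 the differences of the brightest probe in MEFs and in liver had opposite signs in all pairs of arrays, some by margins close to 0. With loss of Dnmt2, Id2 was lower in both MEF pairs (−0.57 and −0.04) and higher in both liver pairs (0.76 and 0.23), so the mean difference was −0.80 in MEFs relative to liver. Id3 gave −0.54 and −0.07 in MEFs and 0.08 and 0.00 in liver, a mean gap of −0.34. With loss of Nsun2, Id2 gave −1.31 and −0.77 in MEFs and 0.62 and 0.09 in liver, a gap of −1.40, and Id3 gave −0.78 and −0.31 against 0.78 and 0.71, a gap of −1.29. The second Id2 probe was −0.03 for the double knockout against Nsun2-/- in liver, and the Id3 value of 0.00 became −0.02 with the authors' values and −0.01 with median scaling, so opposite signs for loss of Dnmt2 did not hold there. With loss of Nsun2, the Id2 liver value of 0.09 ranged from −0.07 to 0.11 over the 7 settings, so its sign did not hold under all of them. The difference between the sample types was not tested, since each group has 1 array. Among 6154 genes detected on all 8 arrays, 12.6% had opposite signs of this kind for loss of Dnmt2 and 12.8% for loss of Nsun2.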

How the results depend on the processing

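No paired analysis was possible because every group holds a single array numbered 1, so compared groups share fewer than 2 replicate numbers. Under 7 alternative settings the listed genes had 571 differences, of which 530 stayed close to the reported value, 41 moved past the margin used and 10 changed sign. No difference of 2-fold or more changed sign, and the largest that did was 0.32. Settings that leave background in the signal shrank differences of dim probes. Without background correction, and with the authors' values, the listed genes past 2-fold in MEFs numbered 2 of 4 reported (Dnmt2-/- against wild type), 0 of 4 (Nsun2-/- against wild type), 3 of 5 (double knockout against wild type) and 1 of 2 (double knockout against Dnmt2-/-), and in Nsun2-/- liver 0 of 1. With an offset of 50 they were 2, 1 and, in Nsun2-/- liver, 0. Under these 3 settings 0 listed genes were 2-fold higher and 0 lower in both pairs for loss of Nsun2, against 1 and 1. For loss of Dnmt2 the count of 3 became 2 under these settings, without Wnt6, and 4 with median scaling, quantile normalization within sample type or detection at 0.05. At 1.5-fold the counts were 5 for the double knockout against Nsun2-/- and 4 against Dnmt2-/- in MEFs; in liver they were 2, 3 and 3 against wild type and 1 for the double knockout against the array labelled Dnmt2-/-. Other pathway genes past 2-fold, in the order Dnmt2-/-, Nsun2-/- and double knockout against wild type, then double knockout against Nsun2-/- and against Dnmt2-/-, numbered 8, 6, 16, 21 and 14 in MEFs. They were 2, 2, 7, 10 and 7 without background correction and with the authors' values, and 4, 2, 9, 12 and 9 with an offset of 50. In liver 6, 3, 9, 5 and 7 became 1, 0, 1, 2 and 2 without background correction and with the authors' values, and 1, 1, 2, 2 and 3 with an offset of 50; median scaling and quantile normalization within sample type gave 3 for the first and 2 for the fourth. Median scaling moved the median of all genes to −0.10 between double knockout liver and the array labelled Dnmt2-/- (0.01 as reported). It moved the share of higher calls over all genes from 74.0% to 61.0% in Nsun2-/- MEFs and from 46.4% to 60.2% on the liver array labelled Dnmt2-/-; without background correction it moved from 75.4% to 85.5% in Dnmt2-/- MEFs. Beyond the settings themselves, the cause was not tested. With 1 array per group no difference has a replicate check, and probes near the detection limit (Wnt5a in liver, Nsun2, Trdmt1) give little information on direction.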

Other observations

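Lrp6, the Wnt co-receptor, was highest in wild type in both sample types. It measured 5.60 in wild-type, 4.60 in Dnmt2-/-, 4.80 in Nsun2-/- and 4.68 in double knockout MEFs, and 6.19 in wild-type liver, where it was not detected on the 3 knockout arrays. Pmepa1, a TGF-beta target that damps SMAD signaling, was 5.96 in wild-type and 6.03 in Nsun2-/- liver, 4.91 in double knockout liver and below detection on the array labelled Dnmt2-/-. These values are descriptions of single arrays.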
